A study of Mus musculus with 8 samples.

Results

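The Id genes and the genes that carry or restrain the BMP signal were followed in cultures of mouse embryonic fibroblasts, connective tissue cells obtained by dissociating embryos, with and without the ubiquitin ligase gene Smurf2. The set holds 10 genes with known roles, chosen with earlier results of these data known. Counts set beside shares of all genes below therefore describe the set and are no test of it. The genes are Id1, Id2, Id3 and Id4, the transcription factor gene Atoh8, the ligand gene Bmp4 and the pseudoreceptor gene Bambi. With them go the antagonist gene Grem1 and the receptor genes Bmpr1a and Bmpr2. All 10 were found among the 17501 genes that the arrays measure with probes of a single gene symbol. Each is read by 1 transcript cluster, a set of probes along a gene's RNA: Id1 by cluster 10477169 (chromosome 2), Id2 by 10399691 (12), Id3 by 10509163 (4), Id4 by 10404975 (13) and Atoh8 by 10545372 (6). Bmp4 is read by 10419261 (14), Bambi by 10453604 (18), Grem1 by 10485948 (2), Bmpr1a by 10418927 (14) and Bmpr2 by 10346651 (1).

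RNA was measured on 8 Affymetrix arrays, of which 4 held wild-type and 4 Smurf2-/- cells, so every combination of genotype, background and passage class has 1 array and no spread of its own. C57B6 cells were taken at passage 7 (early) and 28 (late). Cells of the other background, a mixture of 129SVJ with NIH Black Swiss (mixed BL), were taken at passage 6 (early) and 33 (late). The C57B6 cells came from 1 embryo per genotype, the wild-type mixed BL cells from a pool of 2 embryos and the Smurf2-/- mixed BL cells from a pool of 3. All cells were grown in medium with fetal bovine serum and had no treatment. The labels put the embryos at day E14.5 in one field and at day 11.5 in another, and which holds is not known. They state neither the sex of the embryos nor whether early and late cells came from one culture. The p-values therefore reflect the spread among these 8 arrays and no more.

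Each value is a log2 difference from the gene's own median over the 8 arrays, since the authors centred the deposited values in that way. A value of 0 is therefore a gene's middle level, a difference of 1 is a doubling, and a level says nothing against that of another gene. Array medians lay between -0.02 and 0.05. Smurf2 itself, the check of the labels, averaged 0.69 ± 0.22 (SD, n = 4) with the gene intact and -0.88 ± 0.38 (SD, n = 4) where it was disrupted, with limma's adjusted p = 0.0484 over all genes. The Y-linked gene Uty stood at -1.03 ± 0.04 and 1.32 ± 0.33 (SD, n = 4 each) and the X-inactivation RNA Xist at 2.52 ± 0.74 and -1.84 ± 0.23 in the same groups, so embryo sex and genotype cannot be told apart in any genotype difference below. Whether the fibroblast markers were expressed at all cannot be read from centred values.

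Bone morphogenetic proteins (BMPs) are secreted ligands of the TGF-beta family that bind paired type I and type II receptor kinases. The active receptors phosphorylate Smad transcription factors, which switch on a small set of immediate targets, the Id genes first among them. Id proteins are helix-loop-helix proteins without a DNA-binding region that hold basic helix-loop-helix factors away from DNA, and in fibroblasts they are known for delaying differentiation and senescence. Smurf2 marks receptors, Smads and other proteins for degradation, and Id1 protein is one of its known substrates. The arrays measured RNA only, so they hold no value for Id1 protein.

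Most of the set stood lowest in the late-passage cells without Smurf2. For 6 of the 10 genes (Id1, Id2, Id3, Atoh8, Bmp4 and Bmpr2) the late Smurf2-/- arrays of both backgrounds were the lowest of all 8. The share of all genes with that order was 8.13%. The other 4 genes had other patterns: Id4 and Bambi stood higher in mixed BL than in C57B6 cells at most combinations, Bmpr1a was lower without Smurf2 by a small amount in every pair, and Grem1 varied over a wide range with background and passage. A range over 1 log2 across the arrays was found for 7 of the 10, against 19.8% of all genes. No gene of the set passed the test in any comparison, so every difference given for the set is a size that did not pass.

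**Figure D1:**
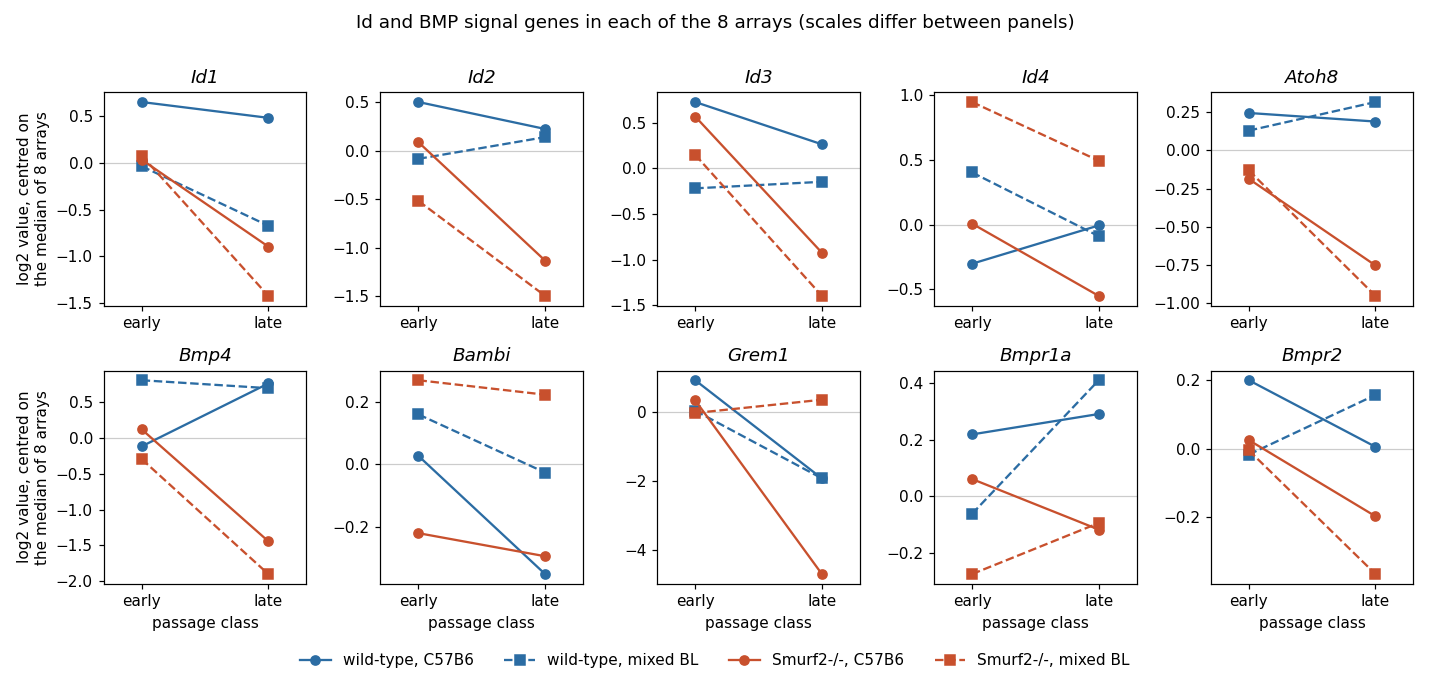
Centred log2 value (vertical axis, scale set for each gene) of the 10 genes in each of the 8 arrays by passage class (horizontal axis), with blue for wild-type, red for Smurf2-/-, circles for C57B6 and squares for mixed BL; lines join the early and late array of one genotype and background. In 6 of the 10 panels both late Smurf2-/- points lie below the other 6.

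Id1 encodes the family member that Smurf2 is known to ubiquitinate. In C57B6 cells it stood at 0.65 and 0.48 in the early and late wild-type arrays and at 0.04 and -0.90 in the early and late Smurf2-/- arrays. The mixed BL values were -0.04 and -0.67 for early and late wild-type and 0.08 and -1.43 for early and late Smurf2-/- cells. The late Smurf2-/- arrays were lowest, but the late wild-type mixed BL array followed only 0.22 above them, the second narrowest gap of the 6 genes. Wild-type and Smurf2-/- arrays overlapped. Compared pair by pair, Id1 was lower without Smurf2 by 1.54-fold and 2.60-fold in early and late C57B6 cells and by 1.68-fold in late mixed BL cells, and was 1.08-fold higher in early mixed BL cells.

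Id2, which binds E proteins and is also known to bind retinoblastoma family proteins, stood lower without Smurf2 in all 4 pairs. Its C57B6 values were 0.50 and 0.22 in early and late wild-type arrays and 0.09 and -1.13 in early and late Smurf2-/- arrays. In mixed BL cells the values were -0.09 and 0.14 with Smurf2 and -0.52 and -1.50 without it, early before late. The pairs differed by 1.33-fold and 1.35-fold at early passage and by 2.56-fold and 3.10-fold at late passage, in C57B6 and mixed BL respectively. Between the groups only the early Smurf2-/- C57B6 array overlapped the range of the wild-type arrays.

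Id3, a close relative of Id1 that is often expressed beside it, was lower without Smurf2 in both late pairs. The early and late C57B6 values were 0.73 and 0.26 in wild-type cells against 0.57 and -0.92 in Smurf2-/- cells. For mixed BL, early and late values were -0.22 and -0.15 in wild-type cells against 0.15 and -1.40 in Smurf2-/- cells. The late pairs differed by 2.28-fold and 2.38-fold, whereas the early Smurf2-/- array was slightly lower in C57B6 (-0.16 on the log2 scale) and higher in mixed BL (0.37). A gap of 0.71 parted the late Smurf2-/- arrays from all others.

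Atoh8 encodes a basic helix-loop-helix factor known as a target of BMP signals. It was the only gene of the set in which all 4 Smurf2-/- arrays lay below all 4 wild-type arrays, an order that 1.02% of all genes shared. Wild-type arrays kept to a narrow band, with early and late values of 0.25 and 0.19 in C57B6 and 0.13 and 0.32 in mixed BL cells. Without Smurf2 the early arrays stood at -0.19 in C57B6 and -0.13 in mixed BL, and the late arrays at -0.76 and -0.96. The group values were 0.22 ± 0.08 (SD, n = 4) with and -0.51 ± 0.41 (SD, n = 4) without Smurf2, so the spread was wider among Smurf2-/- arrays, where early and late arrays stood apart.

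Bmp4 encodes a secreted ligand that signals through the receptors listed here. Among the 10 genes it had the largest late genotype difference that ran the same way in both backgrounds. C57B6 cells gave -0.12 and 0.76 in early and late wild-type arrays and 0.12 and -1.44 in early and late Smurf2-/- arrays, and mixed BL cells gave 0.80 and 0.69, and -0.30 and -1.90, in the same order. The late null values were 4.59-fold and 6.03-fold below their wild-type partners, and a gap of 1.15 separated them from the other 6 arrays. At early passage the backgrounds differed in sign, with Smurf2-/- higher by 0.24 in C57B6 and lower in mixed BL, at -1.10. One early wild-type array, that of C57B6, stood apart from the other wild-type arrays.

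The promoters of 4 of the 6 genes whose RNAs stood lowest in both late Smurf2-/- arrays are shown. No Id1 promoter was matched, and that of Bmpr2 was searched but is not printed. The sequences cover the 250 bases before the annotated start, 5′ to 3′ on the gene's strand, from RefSeq for build GRCm38.p6. Capitals mark matches to 3 motifs searched on both strands: GGCGCC, part of a GC-rich element bound by BMP Smads, CAGAC or its reverse complement GTCTG, the Smad box, and CACGTG, an E-box read by basic helix-loop-helix factors. GGCGCC and CACGTG read the same on both strands, and no match overlapped another.
Id2 promoter, chr12:25096093-25096342, minus strand: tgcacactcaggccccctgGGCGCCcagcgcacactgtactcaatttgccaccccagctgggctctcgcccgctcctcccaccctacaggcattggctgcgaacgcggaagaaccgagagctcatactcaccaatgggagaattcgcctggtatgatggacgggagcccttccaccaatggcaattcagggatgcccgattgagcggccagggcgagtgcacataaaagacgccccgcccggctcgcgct
Id3 promoter, chr4:136143572-136143821, plus strand: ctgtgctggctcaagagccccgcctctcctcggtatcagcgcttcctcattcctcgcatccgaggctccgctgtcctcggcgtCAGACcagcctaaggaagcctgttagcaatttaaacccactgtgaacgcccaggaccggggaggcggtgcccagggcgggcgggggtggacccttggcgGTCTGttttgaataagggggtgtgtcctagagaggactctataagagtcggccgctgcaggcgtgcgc
Atoh8 promoter, chr6:72235578-72235827, minus strand: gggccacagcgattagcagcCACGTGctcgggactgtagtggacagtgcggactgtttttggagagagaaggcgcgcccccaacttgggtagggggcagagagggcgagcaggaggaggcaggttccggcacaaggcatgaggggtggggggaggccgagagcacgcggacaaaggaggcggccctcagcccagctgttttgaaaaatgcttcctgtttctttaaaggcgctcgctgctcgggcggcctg
Bmp4 promoter, chr14:46390670-46390919, minus strand: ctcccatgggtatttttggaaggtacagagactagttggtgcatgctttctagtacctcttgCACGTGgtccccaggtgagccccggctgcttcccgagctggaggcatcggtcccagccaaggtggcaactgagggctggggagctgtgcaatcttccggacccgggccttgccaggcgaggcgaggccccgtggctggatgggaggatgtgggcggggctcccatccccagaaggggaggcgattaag
GGCGCC occurred once in the Id2 promoter, starting 231 bases before the start. The Smad box occurred at 167 and 68 bases before the start of Id3, the first as CAGAC and the second as its reverse complement. The E-box lay 230 bases before the start of Atoh8 and 188 before that of Bmp4. Promoters of 8 of the 10 genes were matched and searched. Of these, 5 carried GGCGCC (Id2, Id4, Grem1, Bmpr1a and Bmpr2), against 9.59% of all 32851 promoters, 2 carried a Smad box (Id3 and Grem1), against 42.2%, and 2 carried CACGTG, against 6.02%. GGCGCC is made of G and C alone, and the 8 promoters held 62.8% to 78.8% of these bases. These matches describe letters in a window and say nothing of binding.

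Id4, the Id family member that is known to act apart from the others in several tissues, did not share their order. It stood at -0.30 and -0.01 in early and late wild-type and at 0.01 and -0.55 in early and late Smurf2-/- C57B6 cells. In mixed BL the values were 0.40 and -0.09, and 0.94 and 0.49. Late Smurf2-/- cells were thus lowest of all arrays in C57B6 and second highest in mixed BL. Smurf2-/- was higher than wild-type in 3 of 4 pairs, by 1.24-fold to 1.5-fold, and 1.46-fold lower in late C57B6 cells.

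Bambi encodes a receptor-like protein without kinase activity that restrains BMP and TGF-beta signals, and it is itself a known BMP target. Its values covered only 0.62 log2 from lowest to highest array. In C57B6 cells they were 0.03 and -0.35 in early and late wild-type and -0.22 and -0.29 in early and late Smurf2-/- arrays, and in mixed BL 0.16 and -0.03, and 0.27 and 0.22. Every mixed BL array lay above its C57B6 partner, by 1.10-fold to 1.43-fold, and every late array below its early partner, by 1.03-fold to 1.3-fold. The genotypes overlapped widely.

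Grem1 encodes gremlin 1, a secreted antagonist that binds BMP ligands and keeps them from their receptors. Its range over the arrays, 5.59 log2, exceeded that of 99.98% of all genes, whose median range was 0.54. The early arrays lay between -0.03 and 0.91. At late passage wild-type cells of both backgrounds stood at -1.92, whereas Smurf2-/- cells stood at -4.68 in C57B6 and 0.35 in mixed BL. The late Smurf2-/- arrays therefore lay on either side of their wild-type partners, 6.77-fold lower in C57B6 and 4.82-fold higher in mixed BL, and 32.7-fold apart from each other. Among the 8 fibroblast markers, decorin (Dcn) stood at -2.17 and -2.09 in the late wild-type arrays of C57B6 and mixed BL and at -2.49 and 2.44 in the late Smurf2-/- arrays. Thy1 stood at -0.24, -2.21, -2.07 and 0.90 and Pdgfra at 0.10, -1.37, -1.58 and 1.47 in the same arrays. The other 5 markers (Col1a1, Col1a2, Col3a1, Pdgfrb and Vim) had no such spread between the late mixed BL arrays, where Col3a1 stood at 0.01 with and -0.01 without Smurf2 and Vim at -0.03 and -0.27. The part of such cell differences in the Grem1 values was not tested. Its genotype difference over all pairs, -0.28, became 0.73 without the late Smurf2-/- C57B6 array and -1.31 without the late Smurf2-/- mixed BL array.

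Bmpr1a and Bmpr2 encode a type I and the type II receptor for BMP ligands. Bmpr1a stood at 0.22 and 0.29 in early and late wild-type and at 0.06 and -0.12 in early and late Smurf2-/- C57B6 cells, and at -0.06 and 0.41, and -0.27 and -0.09, in mixed BL. Each Smurf2-/- array was below its partner by 1.12-fold to 1.42-fold, though the 2 groups overlapped. Bmpr2 stood at 0.20 and 0.01, and 0.02 and -0.20, in C57B6 and at -0.02 and 0.16, and -0.01 and -0.37, in mixed BL in the same order. Its late Smurf2-/- arrays were the lowest of 8, by a gap of 0.18, and its whole range was 0.57. The ranges of both receptor RNAs, 0.68 and 0.57, lay close to the median range of all genes.

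The genotypes were first compared over both backgrounds and passage classes, by limma with genotype, background and passage class in the model. Lower without Smurf2 were 8 of the 10 genes, against 44.5% of all genes, with a median difference of -0.44 against 0.02 for all genes. The estimates were -0.66 ± 0.25 (SE) for Id1, -0.96 ± 0.24 for Id2, -0.56 ± 0.29 for Id3, -0.73 ± 0.17 for Atoh8 and -1.41 ± 0.47 for Bmp4. Those of the receptors were -0.32 ± 0.11 for Bmpr1a and -0.22 ± 0.10 for Bmpr2. Id4, Bambi and Grem1 differed by 0.22 ± 0.21, 0.04 ± 0.09 and -0.28 ± 0.98. Limma's adjusted p lay between 0.651 and 0.941, and 0 of the 10 genes were called, where 0.0286% of all genes were. That share is Smurf2 itself with the X- or Y-linked genes Xist, Uty, Kdm5d and Eif2s3y. At an unadjusted p under 0.05 there were 5 of the 10 (Id1, Id2, Atoh8, Bmp4 and Bmpr1a), all lower, against 4.42% of all genes. Lower in all 4 pairs were Id2, Atoh8 and Bmpr1a, 3 of 10, against 9.35% of all genes.

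**Figure D2:**
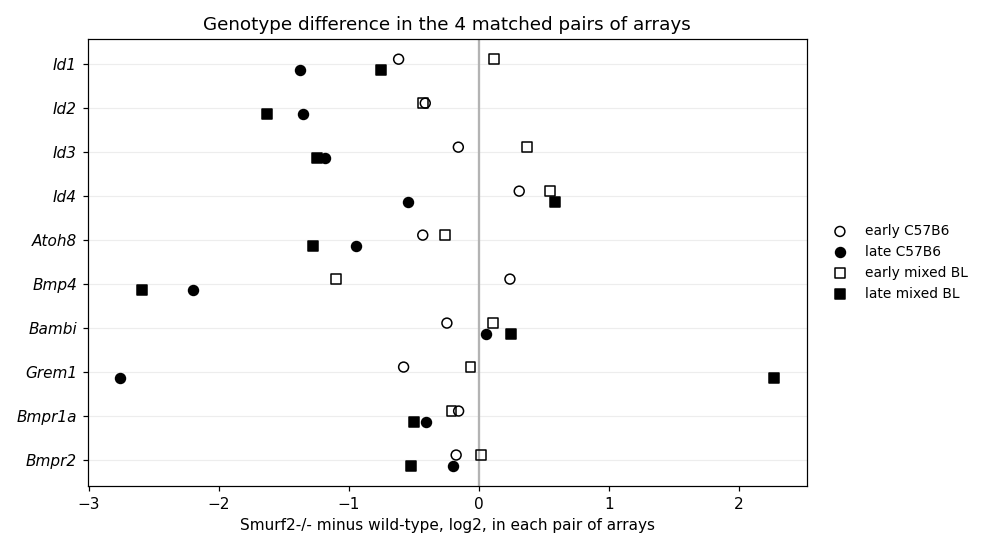
Smurf2-/- minus wild-type (horizontal axis, log2) in each of the 4 matched pairs of arrays for the 10 genes, with open symbols for early and filled symbols for late passage, circles for C57B6 and squares for mixed BL. For Id1, Id2, Id3, Atoh8 and Bmp4 both late pairs lie below -0.5, and for Grem1 the late pairs lie at -2.76 and 2.27.

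Within late passage the genotype differences of Id1, Id2, Id3, Atoh8, Bmp4, Bambi and both receptors were larger in size than over both passage classes, and those of Id4 and Grem1 were smaller. Id1 differed by -1.07 ± 0.28 (SE), Id2 by -1.49 ± 0.15, Id3 by -1.22 ± 0.16, Atoh8 by -1.11 ± 0.11 and Bmp4 by -2.40 ± 0.36, which is 2.09-fold to 5.26-fold. Limma's adjusted p for these was 0.235, 0.101, 0.128, 0.101 and 0.128. The receptor estimates were -0.45 ± 0.15 for Bmpr1a and -0.36 ± 0.12 for Bmpr2, and those of Id4, Bambi and Grem1 were 0.02 ± 0.29, 0.15 ± 0.13 and -0.25 ± 1.51. Of the 10 genes 0 were called, as were 0.0% of all genes, and 7 had an unadjusted p under 0.05, all lower, against 6.97% of all genes. The set's median was -0.76, and that of all genes 0.02. Lower by more than 0.5 log2 in both late pairs were 5 of 10, against 2.91% of all genes.

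Within early passage the differences were small. Id1 differed by -0.25 ± 0.28 (SE), Id2 by -0.42 ± 0.15, Id3 by 0.10 ± 0.16, Id4 by 0.43 ± 0.29, Atoh8 by -0.35 ± 0.11 and Bmp4 by -0.43 ± 0.36. Limma called 0 of the 10 genes, against 0.00571% of all genes, and 2 of them (Id2 and Atoh8) had an unadjusted p under 0.05, both lower, against 0.703%. None of the 10 was lower by more than 0.5 in both early pairs, against 0.526% of all genes. The difference between the late and the early genotype effect, tested as an interaction, was -0.81 ± 0.40 for Id1, -1.07 ± 0.22 for Id2, -1.32 ± 0.23 for Id3, -0.76 ± 0.16 for Atoh8 and -1.97 ± 0.51 for Bmp4. The interaction was called for 0 of the 10 genes and for 0.0% of all genes, with limma's adjusted p from 0.761 to 1.0. At an unadjusted p under 0.05 there were 4 (Id2, Id3, Atoh8 and Bmp4), all with a more negative late difference, against 2.5% of all genes.

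**Figure D3:**
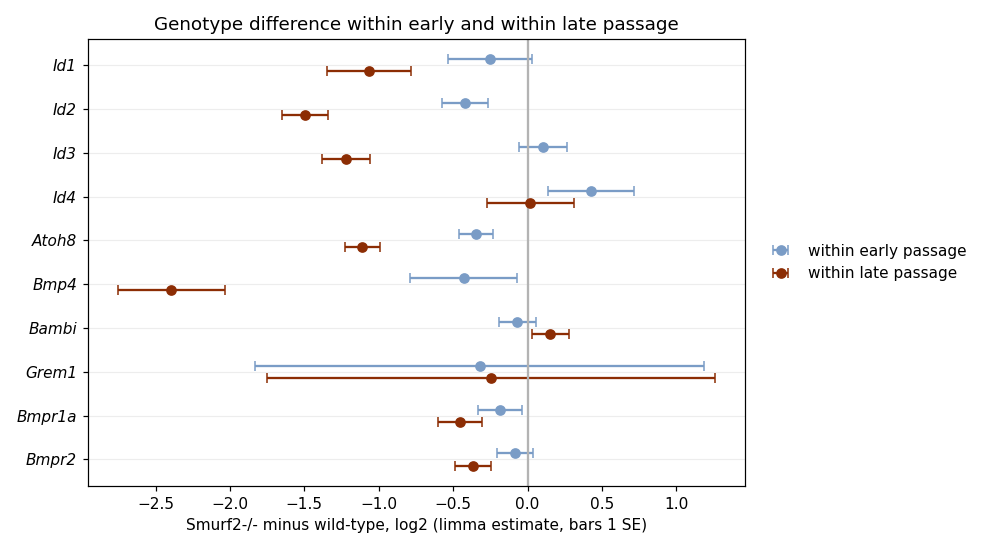
Limma estimate of Smurf2-/- minus wild-type (horizontal axis, log2) within early (light blue) and within late passage (brown) for the 10 genes, with bars of 1 SE. The late estimates of Id2, Id3, Atoh8 and Bmp4 lie from -1.11 to -2.40, the early ones from -0.43 to 0.10.

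Other cell features moved with the late Smurf2-/- arrays. All 14 measured cell cycle genes had a higher limma estimate without Smurf2 within late passage, with a median of 0.93 against 0.02 for all genes. Not every pair was higher, since in late mixed BL cells Mcm4 stood at 0.19 without and 0.41 with Smurf2. The list's median was 1.15 and 0.54 in the C57B6 and mixed BL arrays of late Smurf2-/- cells against -0.22 to 0.03 in the other 6. All 5 measured smooth muscle and pericyte markers had a lower estimate, with a median of -1.27 against 0.02 for all genes. Myh11 was not lower in late C57B6 cells, at -0.52 without and -0.55 with Smurf2. The marker list's median was -0.79 in both late Smurf2-/- arrays and -0.37 to 0.34 elsewhere. Among these markers calponin (Cnn1) differed by -2.09 ± 0.51 (SE) and Rgs5 by -1.51 ± 0.25. The 8 fibroblast markers had medians of -0.88 in late Smurf2-/- C57B6 and -0.50 in late wild-type mixed BL arrays, and of -0.08 to 0.09 in the others. The median of the 6 endothelial markers stayed between -0.07 and 0.08, though Emcn alone stood at 0.96 in the early Smurf2-/- mixed BL array. In RNA of a whole culture, fewer cells of a type and less RNA per cell cannot be told apart, and the part of these features in the values of the Id and BMP genes was not tested.

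**Figure D4:**
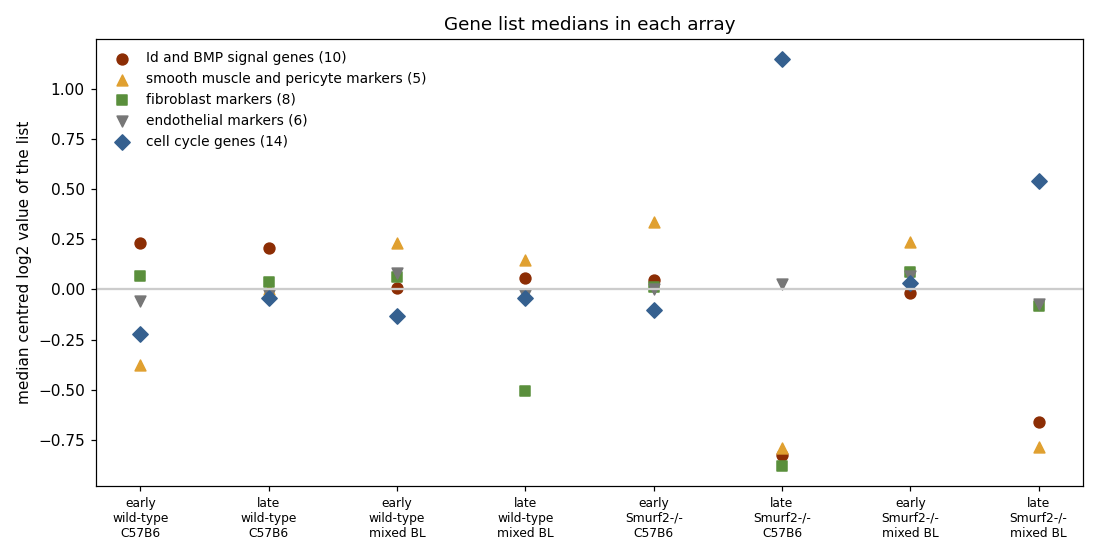
Median centred log2 value (vertical axis) of the 10 Id and BMP signal genes and of 4 marker lists in each of the 8 arrays (horizontal axis); numbers in the key are measured genes. In the late Smurf2-/- arrays the Id and BMP genes have medians of -0.83 and -0.66 beside -0.79 for smooth muscle and pericyte markers and 1.15 and 0.54 for cell cycle genes.

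Late passage was compared with early passage in the same models. Over both genotypes 9 of the 10 genes were lower late, against 42.5% of all genes, with Id1 at -0.81 ± 0.25 (SE), Id3 at -0.86 ± 0.29, Id2 at -0.56 ± 0.24, Bmp4 at -0.60 ± 0.47 and Grem1 at -2.35 ± 0.98. Limma called 0 of 10, against 0.0171% of all genes. Id1 and Id3 had an unadjusted p under 0.05, 2 of 10, both lower, against 10.3% of all genes. Id1 and Bambi were lower late in all 4 pairs, 2 of 10, against 11.9% of all genes.

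Split by genotype, the passage differences of Id1, Id2, Id3, Atoh8 and Bmp4 were larger in size in cells without Smurf2. Within Smurf2-/- cells Id1 differed by -1.22 ± 0.28 (SE), Id2 by -1.10 ± 0.15, Id3 by -1.52 ± 0.16, Atoh8 by -0.70 ± 0.11 and Bmp4 by -1.58 ± 0.36, with limma's adjusted p of 0.182, 0.112, 0.102, 0.125 and 0.182. Within wild-type cells the same genes differed by -0.40 ± 0.28, -0.03 ± 0.15, -0.20 ± 0.16, 0.07 ± 0.11 and 0.38 ± 0.36. Grem1 differed by similar amounts in both, at -2.32 ± 1.51 without and -2.39 ± 1.51 with Smurf2, although these means cover opposite signs among the Smurf2-/- pairs. Limma called 0 of 10 and 0.0% of all genes within either genotype. An unadjusted p under 0.05 was found for 5 of the set in Smurf2-/- cells, all lower, against 8.71% of all genes, and for 0 in wild-type cells, against 7.25%. The difference between the genotypes' passage effects is the interaction given above and was not called.

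**Figure D5:**
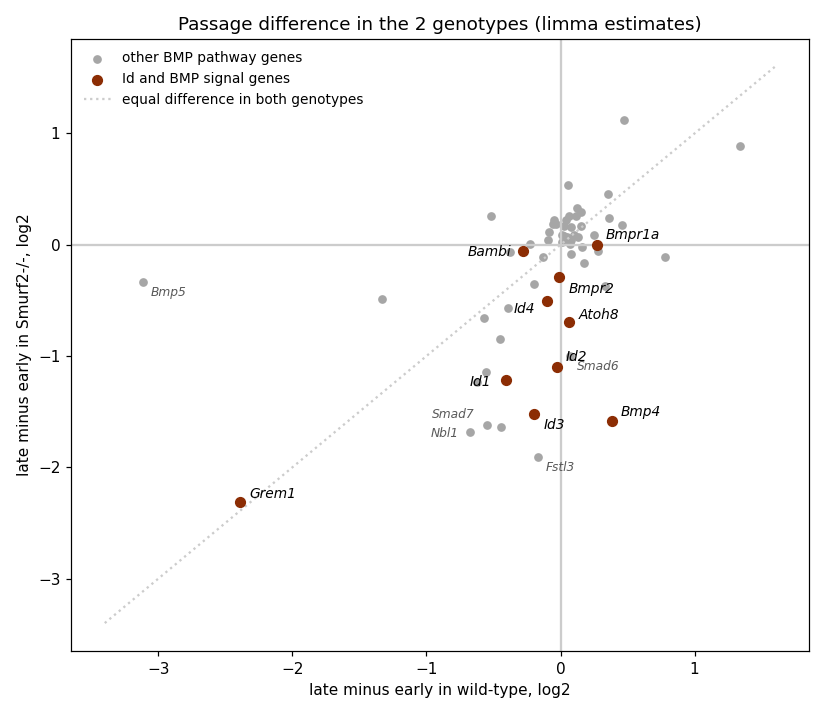
Limma estimate of late minus early in wild-type (horizontal axis, log2) and in Smurf2-/- cells (vertical axis, log2) for the 10 genes (brown) and 52 other BMP pathway genes (grey, 5 of them named); the dotted line marks equal differences. Id2, Id3, Atoh8 and Bmp4 lie near or right of 0 on the horizontal axis and between -0.70 and -1.58 on the vertical one.

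Between the backgrounds Grem1 had the largest estimate, 0.95 ± 0.98 (SE), within its error. Id4 and Bambi had the lowest p, both higher in mixed BL. Their estimates were 0.65 ± 0.21 (SE) for Id4 and 0.37 ± 0.09 for Bambi, with limma's adjusted p of 0.267 and 0.205. Limma called 0 of the 10 genes, against 0.08% of all genes, and these 2 were the genes of the set with an unadjusted p under 0.05, both higher, against 6.85%. Bambi was higher in mixed BL in all 4 pairs, as were 10.4% of all genes, and Id2 and Id3 were lower in all 4, at -0.41 ± 0.24 and -0.56 ± 0.29. Within C57B6 all 10 genes were lower without Smurf2, against 39.3% of all genes, and within mixed BL 7 of 10, against 54.1%. Limma called 0 of 10 and 0.0% of all genes within either background, and an unadjusted p under 0.05 was found for 1 (Id1) in C57B6, against 3.62%, and for 3 (Id2, Atoh8 and Bmp4) in mixed BL, against 2.23%, all lower. Id1 differed by -1.0 ± 0.32 (SE) in C57B6 and -0.32 ± 0.32 in mixed BL, and Bmp4 by -0.98 ± 0.67 and -1.84 ± 0.67. The interaction of genotype and background was called for 0 of 10 and 0.0% of all genes, and 0 of 10 had an unadjusted p under 0.05, against 3.18%. Its largest estimate in the set was 2.77 ± 1.75 for Grem1.

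The order of arrays within the set fell into groups. Over the 8 arrays, which share embryos and perhaps cultures, Pearson's r was 0.92 between Id1 and Id3, 0.84 between Id1 and Id2, 0.94 between Id2 and Atoh8 and 0.93 between Atoh8 and Bmp4. Id4 followed Bambi (r = 0.76) and not Id1 (r = -0.04). Across all genes, those nearest to Id1 over the 8 arrays were Luzp1 (r = 0.984), Tgfbrap1 (0.983), Rhbdf1 (0.978), Trip10 (0.977) and Chp1 (0.977). Id3 ranked 86 and Id2 438 on that list. Nearest to Bmp4 were 2610008E11Rik (0.974), Txnip (0.968), Kctd20 (0.958), Sptan1 (0.949) and Tmem141 (0.948), with Atoh8 ranked 13. These correlations describe the arrays and were not tested.

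The rest of the BMP pathway was read from 55 listed genes, of which 52 were measured and 0 were called in any of 8 comparisons. Both late Smurf2-/- arrays were lowest for 5 of the 52 genes, a share close to the 8.13% of all genes. These were the type I receptor gene Acvr1, the antagonist genes Fstl3 and Nbl1 and the inhibitory Smad genes Smad6 and Smad7, named here after their values were seen. Smad6, a known BMP target whose protein blocks BMP receptors, stood at -1.03 (C57B6) and -1.12 (mixed BL) in the late Smurf2-/- arrays and between -0.36 and 0.21 in the other 6. Its late genotype difference was -1.15 ± 0.16 (SE), close in size to those of Id1 and Id3. Nbl1 stood at -1.20 and -1.51 in these arrays and differed by -1.03 ± 0.10 within late passage, but was also lower late in wild-type cells, at -0.67 ± 0.10. All 6 genes of the Smad list had a genotype estimate below 0 in the additive model, against 44.5% of all genes, with a median of only -0.10. Their estimates within a passage class, over both backgrounds, were not all below 0. Within early passage 4 were lower and 2 higher, and within late passage again 4 and 2. The 2 higher late estimates were only 0.01 and 0.0002.

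Among the 12 other ligands measured, the late genotype difference had a median of 0.08, with 10 higher and 2 lower. Bmp5, a ligand of another BMP subgroup, stood at 3.25 and 2.44 in the early wild-type arrays of C57B6 and mixed BL and between -0.37 and 0.15 in the other 6. Within early passage it differed by -2.71 ± 0.25 (SE) between genotypes, with limma's adjusted p = 0.568, and within wild-type cells by -3.11 ± 0.25 between late and early passage, with an adjusted p of 0.493. The 9 other receptors and co-receptors had a median of 0.07 for the late genotype difference and the 13 other antagonists one of -0.06. Acvr1 differed by -0.70 ± 0.16 within late passage.

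Of the 7 other BMP target transcription factors measured, the late estimate was lower without Smurf2 for 5 and higher for 2, with a median of -0.04. Dlx5, a homeobox factor of bone formation, differed by -1.22 ± 0.31 (SE) at early and -0.57 ± 0.31 at late passage. The 5 genes of Id protein partners and related helix-loop-helix factors all had a higher late estimate without Smurf2, with a median of 0.21 against 0.02 for all genes. Tcf12 was not higher in late C57B6 cells, at -0.12 without and -0.01 with Smurf2. Of the 5 genes Tcf3, which encodes E proteins that Id proteins bind, differed by 0.21 ± 0.10. Tcf4 and Tcf12 differed by 0.05 ± 0.24 and 0.20 ± 0.23. Twist2 differed by 1.47 ± 0.51, unlike in size between backgrounds. It stood at -0.29 without and -0.77 with Smurf2 in late C57B6 cells, and at 1.49 and -0.96 in late mixed BL cells.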

How the data were processed

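Total RNA of 8 fibroblast samples was hybridised to Affymetrix arrays, labelled with biotin by the maker's kit, per the labels' protocols. The authors deposited 1 table of log2 values in which each transcript cluster is centred: its median lies within 5e-07 of 0. That the scale is log2 was read from the values. How arrays were normalised and probes summarised is not given in the sources used here. Builds mm8 and mm9 are listed, per the submitters' processing notes. An exon array is named in the series text, but the probe identifiers matched a gene-level array, whose annotation gave the names.

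Of 24169 clusters, 19134 had 1 gene symbol, 1230 several and 3805 none. Those with 1 symbol named 17501 genes, valued as the mean of their clusters. Symbols of 19067 clusters were updated through a RefSeq table of GRCm38.p6.

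All genes were fitted with limma 3.58.1 (R 4.3.3) without a trend: an additive model of genotype, background and passage class, and models with 1 interaction, Benjamini-Hochberg adjusted over all genes, threshold 0.05. Called means past that threshold. The fit was tested on simulated data. Sample titles end in a number that stands for passage class, so the model holds that pairing. Precision is limited by the number of arrays. Alternatives were all clusters singly, array medians shifted to 0, quantile normalisation, a variance trend, robust estimation, no replicate block, no X and Y genes, and each array left out.

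The genes and lists were chosen with earlier results of these data known. Always named were the 10 genes and Smurf2. From other lists up to 3 genes with the lowest p for genotype and 3 for passage could be named, and for Id1 and Bmp4 the 5 genes of highest correlation. Outside that rule, Fstl3, Mcm4, Tcf12, the fibroblast markers Pdgfra, Col1a1, Col1a2 and Vim, and the sex-linked genes Xist, Uty, Kdm5d and Eif2s3y were also named. Some items are not reported here.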

Additional observations from a re-analysis of the deposited data

Results flagged for a closer look

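In each genotype the 4 arrays of every gene of the set were checked for a value far from the rest, by the gap to the nearest array over the whole range (Dixon's test at its critical value for 4 arrays). Of 20 such groups, 2 went past it. Chance alone gives about 1 in 20 for independent groups of like arrays. Each group here mixes both passage classes and both backgrounds, and the genes share arrays, so that rate need not hold. Bmp4 in the early wild-type C57B6 array, at -0.119, lay far below the other wild-type arrays at 0.69 to 0.80, with a ratio of 0.880. Grem1 in the late Smurf2-/- C57B6 array, at -4.68, lay far below the other Smurf2-/- arrays at -0.03 to 0.35, with a ratio of 0.924.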

How the results depend on the processing

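Over 11 comparisons and 16 settings, the first included, 1700 limma tests of the 10 genes gave 0 calls, and the lowest adjusted p was 0.0864 (Grem1, genotype within late passage, without the late Smurf2-/- mixed BL array). The late genotype differences of Id1, Id2, Id3, Atoh8 and Bmp4, genes chosen after seeing the data, kept their sign in all 14 other settings. They ran from -1.45 to -0.68 for Id1, -1.71 to -1.11 for Id2 and -1.32 to -0.88 for Id3. For Atoh8 they ran from -1.22 to -0.85 and for Bmp4 from -2.70 to -1.93. Only omission of a late array, shifted medians and quantile normalisation could move these estimates. The rest of the settings leave them unchanged by construction and say nothing of their stability. The count of 6 genes lowest in both late Smurf2-/- arrays was 6 with shifted medians and 6 after quantile normalisation. Signs did turn for Grem1 in genotype, background and interaction. Its genotype difference was 0.73 without the late Smurf2-/- C57B6 array and -1.31 without the late Smurf2-/- mixed BL array. Its interaction with passage was 2.80 and -2.64 in the same refits. Leaving out each of the 8 arrays in turn gave 80 values per comparison over the 10 genes. Signs changed in 4 of 80 values for genotype (Grem1 and Bambi) and 11 of 80 for background (Atoh8, Bmp4, Bmpr2 and Grem1). They changed in 5 of 80 for the genotype by passage interaction (Grem1 and Id4) and 0 of 80 for passage. Among the other settings 1 of 70 such values changed sign for genotype, Grem1 after quantile normalisation at 0.0048, and 0 did for the other 3 comparisons. Of these settings only shifted medians and quantile normalisation could move an estimate of the set. The remaining values were fixed beforehand, so these counts are no measure of stability.

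Counts of called genes over the whole array were less stable. The 5 genes called for genotype were Smurf2 and the X- or Y-linked genes Xist, Uty, Kdm5d and Eif2s3y. The setting without X and Y genes therefore leaves only Smurf2 of these to be called. The cause of the other changes was not tested. For genotype, 5 genes became 3 over single clusters, 0 with shifted medians, 0 after quantile normalisation, 3 with a variance trend, 1 with robust estimation and 0 without X and Y genes, and 0 to 1 without any 1 array. For passage, 3 became 0 over single clusters, 0 with shifted medians, 25 with a trend and 0 with robust estimation, and 0 to 2 without any 1 array. For background, 14 became 66 over single clusters, 7 with shifted medians, 1 after quantile normalisation, 28 with a trend, 5 with robust estimation and 8 without X and Y genes, and 1 to 21 without any 1 array. Without the replicate block (passage class, the pairing used), genotype gave 4 and background 14 genes, and 0 of the 10 genes were called. Each gene of the set has 1 cluster, so single clusters gave no second value for it. With 1 array per combination, no spread within a combination could be estimated.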
